A study of Cavia porcellus with 30 samples.

Results

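The liver transcripts described here are those whose mean level in guinea pigs given the high dose of thioacetamide was below that of vehicle animals at 9 h and above it at 33 h. They were chosen on the deposited TPM values (transcripts-per-million, which divide each transcript's reads by its length and scale every library to the same total). R9 is the mean of the high dose group over the mean of the vehicle group at 9 h, R33 is the same ratio at 33 h, and 0.1 TPM was added to each mean. A member had an R9 of at most 0.67, an R33 of at least 1.5 and a mean of at least 1 TPM over the 10 vehicle animals. This rule took 468 of the 25824 transcripts listed, and 13267 transcripts met the vehicle minimum alone. The high dose and vehicle values that chose the members are given below as a description, without a test.

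The study gave 30 Hartley guinea pigs, an outbred breed, saline at 3 ml/kg (vehicle), thioacetamide at 25 mg/kg (low dose) or thioacetamide at 100 mg/kg (high dose), and took liver RNA at 9 h or 33 h, with 5 animals in each of the 6 groups. The design describes the doses as giving different degrees of injury. The labels state neither sex nor age, and each animal contributed liver at 1 time only. Libraries were poly-A enriched and stranded, and each held 2.14e+07 to 3.38e+07 estimated counts. Whole liver was sequenced, so fewer cells of a type and less RNA per cell cannot be told apart.

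Thioacetamide is a liver toxicant that does little harm until it is oxidised, mainly by cytochrome P450 enzymes of hepatocytes, to reactive products that bind proteins and lipids. The hepatocytes around the central vein, which are rich in these enzymes, are injured most. Surviving hepatocytes can later divide to replace lost tissue, and inflammatory cells enter the damaged zone. A transcript that is lower early and higher later can therefore be followed through an injury and what comes after it.

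The identifiers could not be paired with gene names, because the reference table used here matched 0 of them. No gene, pathway or sequence can be attached to a member, and the liver origin and other cell types were not checked against marker genes. Members are described by their levels, their length and the animals in which they were high or low, and 4 of them by identifier. Several members can be transcripts of 1 gene, and reads shared between similar transcripts are divided by estimation, so members are not independent of one another.

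Most members were transcripts of modest level. Their vehicle means ran from 1.01 to 11743 TPM with a median of 3.61 TPM, below the median of 7.37 TPM over the 13267 transcripts at the vehicle minimum. Their median length was 1888.5 bases (range 123 to 13055), against 2354 bases over those transcripts. R9 among the members had a median of 0.604 and reached down to 0.0145, and R33 had a median of 1.89 and reached up to 38.0. Most R9 values were close to the limit of 0.67, with quartiles of 0.534 and 0.638. R33 spread further from its limit of 1.5, with quartiles of 1.66 and 2.38. At the edges, a member with an R9 of 0.6699 was inside and a transcript at 0.6703 was outside. For R33, the nearest values were 1.5007 inside and 1.499 outside, and for the vehicle mean 1.006 TPM inside and 0.994 TPM outside.

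The 9 h and the 33 h thresholds of the rule select very different shares of the transcripts. Of the 13267 transcripts at the vehicle minimum, 1494 had an R9 of at most 0.67, while 6987 (52.7%) had an R33 of at least 1.5. The median R33 over all of these transcripts was 1.55, so an ordinary transcript passed the 33 h threshold. TPM is a share of a fixed total. On CPM (counts scaled to a common library total) over library sizes scaled by TMM, a method that centres the libraries on the bulk of the transcripts, the median R33 was 1.01 over these transcripts and 1.23 over the members. The corresponding medians of R9 were 0.971 and 0.636. The 9 h fall was thus of similar size on both scales, whereas much of the 33 h rise seen in TPM was shared with the transcripts at large.

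**Figure D1:**
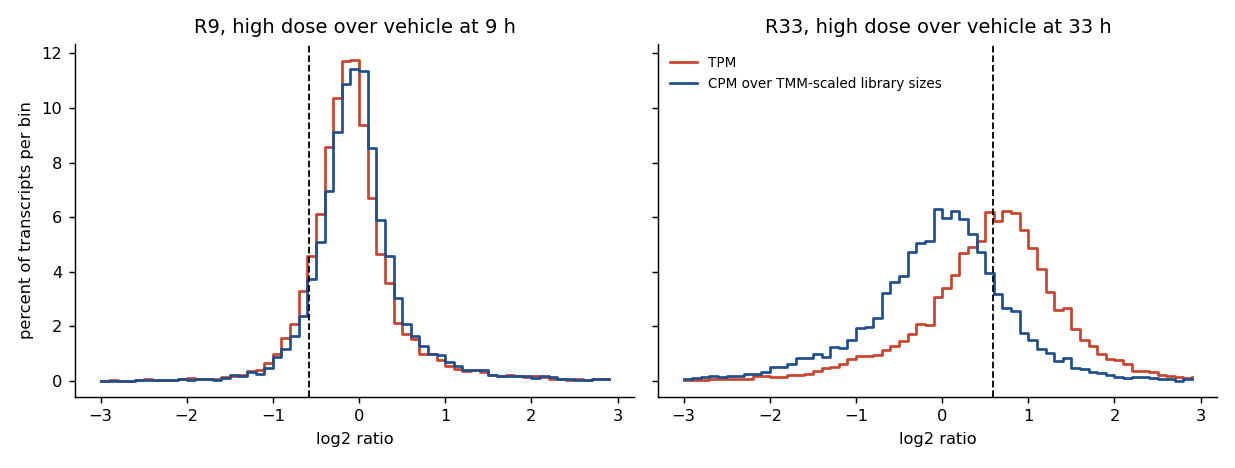
Distribution of the high dose over vehicle ratio at 9 h (left) and 33 h (right) over the 13267 transcripts with a vehicle mean of at least 1 TPM, as the percent of transcripts (vertical axis) per bin of the log2 ratio (horizontal axis). Red lines are ratios of TPM, blue lines ratios of CPM over TMM-scaled library sizes, and dashed lines the thresholds of 0.67 and 1.5. At 33 h the TPM curve lies mostly to the right of the blue curve, with medians of 1.55 and 1.01.

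Applying both thresholds to the TMM-scaled values separated the members further. Of the 468, 103 met both, 246 met only the 9 h threshold, 25 met only the 33 h threshold and 94 met neither, and 29 had a scaled ratio at 33 h below 1. In the 103 that met both, the median ratio to the mean of all vehicle animals at 9 h was 1.08 in vehicle, 0.955 in low dose and 0.640 in high dose animals. At 33 h it was 0.915 in vehicle, 1.28 in low dose and 1.65 in high dose animals. These 103 were chosen after their values were seen, and no test was made on them.

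Across the 6 groups, the rule itself set where the vehicle and high dose animals stood. A low dose level between them is therefore not independent of the rule. The median over members of the group mean at 9 h was 4.05 TPM in vehicle, 3.43 TPM in low dose and 2.31 TPM in high dose animals. At 33 h it was 3.28 TPM in vehicle, 5.28 TPM in low dose and 7.30 TPM in high dose animals. On the TMM scale, the median ratio of the members to all vehicle animals was 1.06, 0.864 and 0.655 at 9 h and 0.938, 1.07 and 1.15 at 33 h, in the same order of groups. The low dose group lay between vehicle and high dose at both times. On the TMM scale its median at 33 h, 1.07, stood against 0.938 in vehicle and 1.15 in high dose animals of that time. The vehicle groups were themselves uneven, since 405 of 468 members (86.5%) had a lower mean in vehicle animals at 33 h than at 9 h, against 62.2% of the 13267 transcripts. The rule divides by these means and so favours transcripts with that difference.

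Single animals showed the same order. The median over members of the log2 ratio to vehicle, on TMM-scaled values, ran from 0.02 to 0.11 in the 5 vehicle animals at 9 h, from −0.27 to −0.16 in the 5 low dose animals and from −0.68 to −0.50 in the 5 high dose animals. At 33 h it ran from −0.17 to −0.06 in vehicle, from 0.02 to 0.20 in low dose and from 0.14 to 0.31 in high dose animals. On this scale no animal of the low dose at 9 h overlapped the vehicle or the high dose animals of that time, while low and high dose animals overlapped at 33 h. In TPM both overlaps were the other way. At 9 h the highest low dose animal (0.011) lay above the lowest vehicle animal (−0.013). At 33 h the highest low dose animal (0.730) lay just below the lowest high dose animal (0.735). The vehicle and high dose animals chose the members, so no graded response to dose is read from this order. The 5 low dose animals at 33 h were all above the 5 low dose animals at 9 h. In TPM the low dose animals at 33 h lay further up, from 0.23 to 0.73, but the median of all 13267 transcripts in the same animals was also raised, from 0.12 to 0.53.

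**Figure D2:**
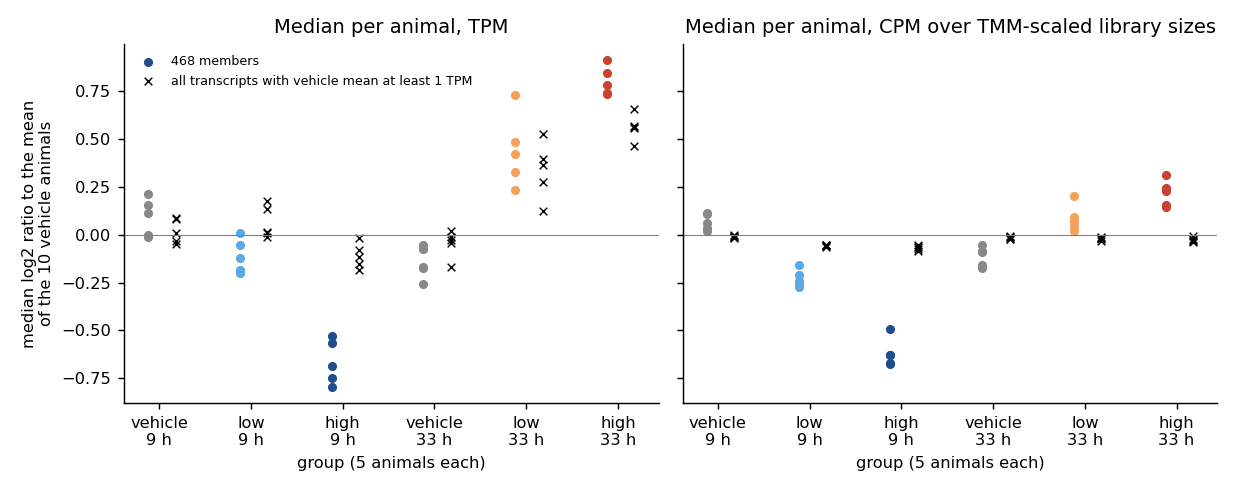
Median log2 ratio to the vehicle mean in each of the 30 animals, by group (horizontal axis), with TPM and TMM-scaled counts in separate panels. Circles are the median over the 468 members, crosses the median over the 13267 transcripts with a vehicle mean of at least 1 TPM. On the TMM scale the crosses stay between −0.09 and 0.00 while the members run from −0.68 in a high dose animal at 9 h to 0.31 in a high dose animal at 33 h.

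Whether the low dose follows can be examined without the animals that chose the members, by comparing the low dose groups at 33 h and 9 h. In this comparison members rose far more often than they fell. Of the 462 members with enough counts to be tested, 146 (31.6%) were higher at 33 h and 6 (1.3%) were lower at an adjusted p under 0.05 in edgeR's quasi-likelihood test. Among all 18239 tested transcripts the shares were even, with 13.6% called higher and 12.7% called lower. Among the 13201 tested transcripts at the vehicle minimum, which every member met, 17.3% were called higher and 14.7% lower. The median log2 difference of the members was 0.31 (quartiles 0.05 and 0.61) against 0.00 over all tested transcripts, and it was positive in 368 of 462 members. The remaining 6 members, of 123 to 216 bases, had too few counts. With library totals in place of TMM scaling, the median over all transcripts moved up by 0.14, and the calls became 192 higher and 2 lower among members and 3756 higher and 1414 lower among all tested transcripts.

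In this same comparison, transcripts that met only 1 of the rule's thresholds gave smaller shares of rises. Of 6500 tested transcripts with the 33 h rise but no 9 h fall at the high dose, 1195 (18.4%) were higher and 1061 (16.3%) lower in low dose animals at 33 h than at 9 h, with a median log2 difference of 0.01. Of 1006 with the 9 h fall but no 33 h rise, 262 (26.0%) were higher and 32 (3.18%) lower, with a median of 0.24. Members thus stood closer to the transcripts that fell at 9 h than to those that rose at 33 h. These differences between sets were not tested.

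Full separation of the animals gave the same picture. In TMM-scaled counts, all 5 low dose animals at 33 h lay above all 5 at 9 h in 121 of 462 members (26.2%), against a background of 9.22% of all tested transcripts. The reverse order held in 3 members (0.649%), against 9.39%. The share called higher was lower among the less abundant members: 24 of 112 (21.4%) with a vehicle mean between 1 and 2 TPM, 47 of 160 (29.4%) between 2 and 5 TPM, 62 of 156 (39.7%) between 5 and 20 TPM and 13 of 34 (38.2%) at 20 TPM or more. The median log2 difference was 0.36, 0.32, 0.28 and 0.32 in these classes, so the size of the difference did not follow the share called. In data simulated at these depths with 5 animals a group, the test recovered 40.3% of 67 changes of 1.5-fold, 67.2% of 67 of 2-fold and 84.8% of 66 of 4-fold. It called 132 transcripts there, against 4792 in the animals, and adjusted p values depend on how many transcripts differ. The recovered shares therefore do not carry over to the calls among members.

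**Figure D3:**
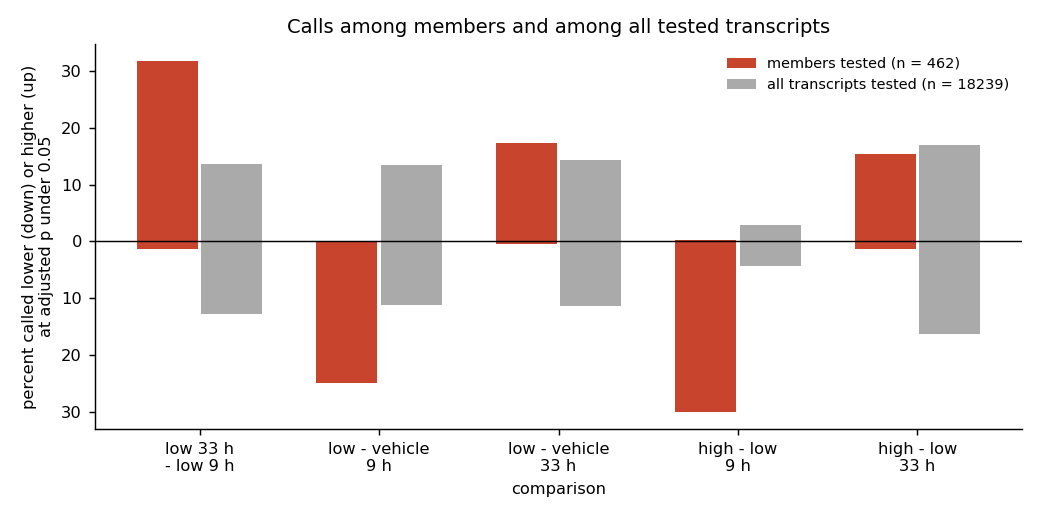
Percent of transcripts called higher (upward bars) or lower (downward bars) at an adjusted p under 0.05 in edgeR's quasi-likelihood test, for 5 comparisons (horizontal axis). Red bars are the 462 members tested and grey bars all 18239 transcripts tested. In low dose 33 h minus low dose 9 h, 31.6% of members were called higher against 13.6% of all transcripts, and this is the comparison that shares no animal with the rule.

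The low dose can also be set against vehicle at each time. These comparisons share their vehicle animals with the rule, so their counts are not independent of how the members were chosen. At 9 h, 115 of 462 members (24.9%) were called lower at the low dose and 0 higher, beside 11.2% lower and 13.5% higher among all tested transcripts, and the members' median log2 fold change was −0.29. Of the tested transcripts at the vehicle minimum, 14.9% were lower and 14.4% higher. At an unadjusted p under 0.05, edgeR had 2 members higher and 169 lower, beside 3360 and 3038 of all 18239 tested transcripts. DESeq2 and limma voom each called 1 member higher at an adjusted p under 0.05. At 33 h, 80 members (17.3%) were called higher and 2 lower, beside 14.3% and 11.4%, with a median of 0.19 against 0.03 over all tested transcripts. The share of rises at 33 h was near the background, so the rise over vehicle at the low dose is no result about the members. The counts depended on the scaling: with library totals, which moved the median of all tested transcripts by 0.14 at 9 h and 0.36 at 33 h, 52 members were lower and 2 higher at 9 h, and 250 were higher and 0 lower at 33 h.

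Calls for both a fall at 9 h and a rise at 33 h against vehicle at the low dose were made for 20 of 462 members (4.33%), against 0.482% of all tested transcripts. Of these 20, 18 were also called higher at 33 h than at 9 h, as were 84 of the 88 such transcripts among all tested. A fall at 9 h with no call at 33 h was found for 94 (20.3%, against 6.78%), a rise at 33 h with no call at 9 h for 60 (13.0%, against 8.47%) and neither for 286 (61.9%, against 59.7%). A further 1 member was lower at both times and 1 only at 33 h, against 3.91% and 7.17%. Among the 94 with only the early fall, 65 were called higher at 33 h than at 9 h within the low dose, as were 739 of the 1236 such transcripts among all tested. By group means in TPM, 338 of 468 members (72.2%) were below vehicle at 9 h and above it at 33 h, against 31.4% of the 13267 transcripts. Only 29 members (6.2%) would have met both thresholds of the rule at the low dose, against 0.603%; the 9 h threshold was met by 62 (13.2%, against 4.93%) and the 33 h threshold by 231 (49.4%, against 31.2%).

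The reference group mattered at 33 h. Measured against the vehicle animals of 9 h, an alternative added after the data were seen, the low dose at 33 h had 25 members called higher and 26 lower, beside 11.3% and 9.13% of all tested transcripts, and the median log2 difference was 0.04. Measured against the vehicle animals of 33 h, the low dose at 9 h had 81 members called lower and 23 higher, beside 16.3% and 18.2%, with a median of −0.11. At the low dose the median member thus lay close to its level in the 9 h vehicle animals by 33 h. The difference between the low dose effects at the 2 times, tested as an interaction, was called more positive at 33 h for 126 members (27.3%) and more negative for 0, beside 5.77% and 5.56% of all tested transcripts. Over the tested transcripts at the vehicle minimum, these shares were 7.47% and 6.67%. The difference was more negative for 0 members by DESeq2 and limma voom as well, and for 0 at an unadjusted p under 0.05 in edgeR, all on the same animals. At that unadjusted p it was more negative for 2197 and more positive for 2377 of all 18239 tested transcripts. The interaction subtracts the difference between the vehicle groups, and the rule favoured members lower in vehicle animals at 33 h. That vehicle difference, 33 h minus 9 h, had a median log2 of −0.18 over members and −0.007 over all tested transcripts. The direction of the interaction is therefore not independent of the rule.

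**Figure D4:**
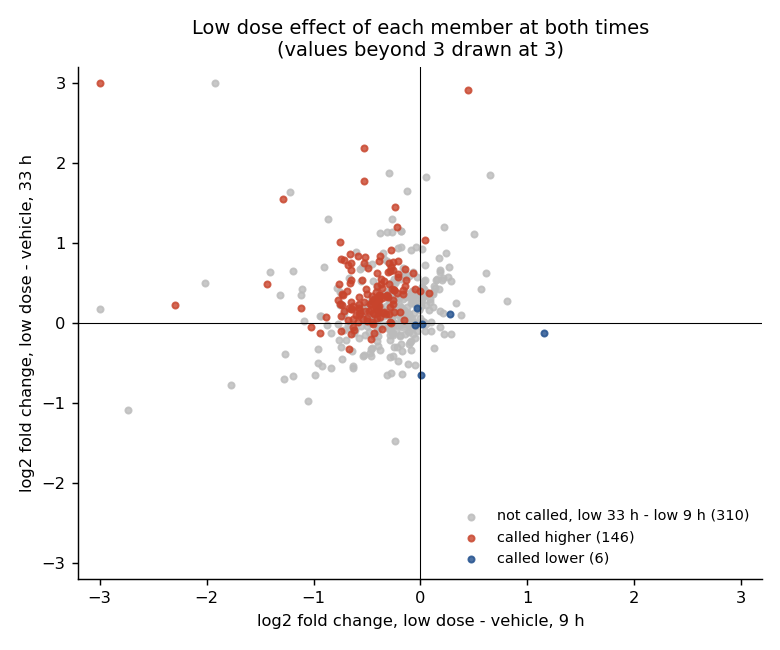
Log2 fold change of the low dose against vehicle at 9 h (horizontal axis) and at 33 h (vertical axis) for the 462 members tested, with values beyond 3 drawn at 3. Red points are the 146 members called higher in low dose 33 h minus low dose 9 h, blue points the 6 called lower and grey points the other 310. Most red points lie to the left of 0 on the horizontal axis and above 0 on the vertical axis.

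The high dose was also compared with the low dose. Both comparisons share their high dose animals with the rule, which chose for low values at 9 h and high values at 33 h, so their direction is not independent of it. At 9 h, 138 of 462 members (29.9%) were lower at the high than at the low dose and 1 was higher, beside 4.22% and 2.86% of all tested transcripts, with a median log2 difference of −0.42. Of these 138, 112 were not called lower at the low dose against vehicle and 26 were, classes that held 2.87% and 0.488% of all tested transcripts. At 33 h, 71 members (15.4%) were higher at the high dose and 6 lower, beside 16.9% and 16.2%, with a median of 0.14. The 33 h count rested in part on the groups fitted, since 40 members were called when only the low and high dose animals of 33 h were in the model. With library totals, 195 members were called lower at 9 h and 195 higher at 33 h. That scaling also moved the median difference over all tested transcripts, to −0.14 at 9 h and 0.31 at 33 h. The medians of the members were −0.56 and 0.42. The counts with library totals therefore include this general shift and are not read as a result about the members. The 9 h count was 90 without high dose animal 3 of that time.

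In the contrasts the rule itself used, the animals' values were not always apart, and they are given without a test. In TPM, all 5 high dose animals lay below all 5 vehicle animals at 9 h in 247 of 468 members (52.8%), against 14.5% of the 13267 transcripts at the vehicle minimum. All 5 lay above them at 33 h in 321 members (68.6%), against 50.8%, and both held in 205 (43.8%), against 6.2%. These figures describe the selection and nothing is read from them.

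The member with the largest rise between the low dose groups was ENSCPOT00000038245.1, a transcript of 585 bases. In treated animals it was almost off at 9 h and was on at both doses at 33 h. It was listed at 0 TPM in all 5 low dose animals at 9 h, and at 12.7, 22.8, 30.5, 44.2 and 28.1 TPM in the low dose animals at 33 h. High dose animals had 0, 1.23, 0, 0 and 8.09e-05 TPM at 9 h and 44.5, 33.5, 48.9, 25.5 and 16.4 TPM at 33 h. Every treated animal at 33 h was thus above every other animal of the study, and the doses overlapped.

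In vehicle animals this transcript was present in only some livers, at 0, 0, 0, 7.94 and 5.65 TPM at 9 h and 2.56, 6.57, 0, 0 and 0 TPM at 33 h. Between the low dose groups it was at least 66.5-fold higher at 33 h, with 3 counts per library as the floor (adjusted p 0.000543, edgeR). Its call held in all 17 alternative analyses, with adjusted p between 1.86e-05 and 0.00398. The fall at 9 h rests on the 2 vehicle animals that had the transcript.

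The next largest rise between the low dose groups was that of ENSCPOT00000034367.1, of 964 bases, and here the low dose exceeded the high dose in its mean. Low dose animals had 1.28, 0.474, 0.265, 0.771 and 0.406 TPM at 9 h and 5.18, 1.80, 2.84, 6.30 and 3.39 TPM at 33 h. The groups did not overlap, and the log2 difference was 2.36 ± 0.50 (SE, n = 5 per group, adjusted p 0.00085, edgeR). High dose animals had 0.182, 0.594, 0.113, 0.527 and 0.445 TPM at 9 h and 0.723, 2.67, 1.87, 0.732 and 4.46 TPM at 33 h. At 33 h the high dose animals overlapped the vehicle animals, which had 1.27, 1.19, 0.736, 0.761 and 1.08 TPM, whereas the low dose animals did not. Vehicle animals at 9 h had 1.33, 1.98, 2.15, 0.987 and 0.761 TPM.

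Other members rose within the low dose by different routes. A member of 2322 bases fell deeply at the low dose at 9 h, to 1.67 ± 1.15 TPM (SD, n = 5) from 7.65 ± 2.05 TPM in vehicle animals, and was at 8.77 ± 2.35 TPM at 33 h. Its log2 difference between the low dose groups was 2.16 ± 0.36 (SE, adjusted p 5.94e-05, edgeR), and its high dose mean at 9 h, 4.36 ± 1.82 TPM, was above the low dose mean. A member of 3178 bases showed no fall at the low dose at 9 h, with 11.8 ± 3.25 TPM against 8.15 ± 4.08 TPM in vehicle animals. By 33 h it was at 48.7 ± 25.6 TPM in low dose animals and 38.8 ± 30.1 TPM in high dose animals, against 4.75 ± 2.27 TPM in vehicle animals. Its low dose rise over vehicle at 33 h was 2.90 ± 0.45 in log2 (SE, adjusted p 3.16e-05, edgeR).

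A member of 2278 bases went from 1.57 ± 0.65 TPM to 8.25 ± 5.05 TPM between the low dose groups, a log2 difference of 2.12 ± 0.38 (SE, adjusted p 0.000133, edgeR). One of 4335 bases went from 2.02 ± 0.70 TPM to 6.76 ± 1.92 TPM, by 1.51 ± 0.47 (adjusted p 0.0172), and its adjusted p was 0.0525 without low dose animal 2 of 33 h. One of 903 bases, the member nearest to the R9 threshold, fell at the low dose at 9 h by 1.44 ± 0.39 in log2 against vehicle (adjusted p 0.00676) and was back at 2.51 ± 0.94 TPM at 33 h.

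The 6 members called lower at 33 h than at 9 h within the low dose ran against the high dose course. The largest falls were those of ENSCPOT00000012589.3 and ENSCPOT00000048140.1. ENSCPOT00000048140.1, of 4492 bases, had 5.33, 5.85, 3.17, 6.26 and 6.90 TPM in low dose animals at 9 h and 2.37, 3.58, 2.63, 3.10 and 2.40 TPM at 33 h. High dose animals had the opposite course, with 1.02, 1.26, 2.64, 0.882 and 1.31 TPM at 9 h and 9.87, 12.5, 20.4, 6.35 and 4.77 TPM at 33 h. At 9 h every high dose animal was thus below every low dose animal, and at 33 h every one was above. The fall within the low dose was −1.21 ± 0.45 in log2 (SE, adjusted p 0.0484, edgeR), a call lost in 11 of 17 alternative analyses, with adjusted p from 0.00129 to 0.101. In TPM the low dose groups overlapped in this member, since the lowest animal at 9 h had 3.17 TPM and the highest at 33 h 3.58 TPM. On TMM-scaled counts, every low dose animal at 33 h lay below every low dose animal at 9 h.

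ENSCPOT00000012589.3, of 1833 bases, had 16.01, 19.9, 30.8, 23.4 and 8.21 TPM in low dose animals at 9 h and 9.87, 6.65, 9.08, 6.37 and 17.1 TPM at 33 h. These groups overlapped, and the log2 difference was −1.24 ± 0.45 (SE, adjusted p 0.0404, edgeR), lost in 10 of 17 alternatives. High dose animals at 33 h had 30.1, 7.14, 17.8, 35.3 and 25.4 TPM, so 1 of them lay within the low dose range. The other 4 falls were smaller, from −0.80 to −0.36. The largest of these was of a member of 3813 bases that went from 2.43 ± 0.37 TPM to 1.66 ± 0.17 TPM (SD, n = 5, adjusted p 0.000705, edgeR).

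By the smaller of its changes at the high dose, the member of 1849 bases ranked first, but its values were those of single livers. It was listed at 0 in all 5 high dose animals at 9 h and in all 5 vehicle animals at 33 h. Vehicle animals at 9 h had 6.66, 5.31, 6.995, 0 and 14.9 TPM, at least 78.5-fold above the high dose with the floor of 3 counts per library. At 33 h, 1 high dose animal had 18.5 TPM and the other 4 had 0. Low dose animals had 0.167, 0, 0, 8.78 and 0.215 TPM at 9 h and 0, 7.56, 0, 9.56 and 0 TPM at 33 h, with no call between them (adjusted p 0.886, edgeR).

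Several others with large ratios were small or rarely detected. The member of 159 bases summed to 1 to 12.9 estimated counts in the groups where it was seen and was among the 6 not tested. The member of 423 bases had 0 to 0.204 TPM in high dose animals at 9 h, 4 estimated counts in all, and 1.73 to 5.42 TPM at 33 h. Its low dose animals had 0 to 2.77 TPM at 9 h and 0.605 to 5.18 TPM at 33 h, which overlapped. In the member of 297 bases, low dose animals had 5.83, 0, 0, 0 and 4.80 TPM at 9 h and 0, 0, 9.40, 2.96 and 3.37 TPM at 33 h, again without separation.

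The member of 744 bases was present in all 30 animals. High dose animals had 0.451, 1.41, 0.395, 0.615 and 1.53 TPM at 9 h and 7.34, 8.18, 5.86, 5.74 and 6.29 TPM at 33 h. Low dose animals had 3.18, 3.91, 1.16, 3.69 and 2.06 TPM at 9 h, close to the vehicle range of 1.16 to 3.90 TPM, and 5.22, 5.20, 1.81, 4.80 and 4.58 TPM at 33 h. At 33 h 4 of the 5 low dose animals thus exceeded the highest vehicle animal of that time, at 2.73 TPM, but all were below every high dose animal. The difference between the low dose groups was 0.39 ± 0.53 in log2 (SE, adjusted p 0.653, edgeR).

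The most abundant members varied widely between animals of 1 group. In the member of 2267 bases, which took 0.658% to 8.19% of the counts of a library, vehicle animals had 5801, 7118, 14020, 19619 and 5872 TPM at 9 h and 4646, 5105, 19712, 15426 and 20110 TPM at 33 h. High dose animals had 4470, 5085, 6672, 9820 and 5270 TPM at 9 h and 4133, 6888, 14897, 25987 and 45637 TPM at 33 h. Low dose animals had 4874, 3788, 8809, 8934 and 9255 TPM at 9 h and 4056, 5833, 8860, 11885 and 52377 TPM at 33 h. All groups overlapped, the R33 of 1.5007 was the nearest of any member to the threshold, and the difference between the low dose groups was 0.92 ± 0.63 in log2 (SE, adjusted p 0.312, edgeR).

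The next most abundant member, of 1366 bases, had 40.0, 1526, 263, 1384 and 184 TPM in vehicle animals at 9 h, so 2 of the 5 animals set its mean of 679 TPM. Low dose animals had 136, 140, 27.9, 817 and 343 TPM at 9 h and 201, 295, 284, 394 and 307 TPM at 33 h, which overlapped. High dose animals had 242, 194, 97.3, 462 and 149 TPM at 9 h and 281, 268, 533, 454 and 73.5 TPM at 33 h, against 171, 162, 366, 138 and 22.1 TPM in vehicle animals at 33 h. The groups overlapped at both times. Among the 10 most abundant members, 1 was called in the low dose comparisons, higher than vehicle at 33 h, where 14.3% of all tested transcripts were called higher.

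This spread was not general among abundant transcripts. The median coefficient of variation within a group, in TPM, was 33.4% to 61.1% for the 10 most abundant members and 9.47% to 15.9% for the 1609 other transcripts with vehicle means of 50 TPM or more. Over all members it was 17.5% to 22.4%, against 14.2% to 18.2% over the 13267 transcripts at the vehicle minimum. Among the 10 most abundant members it was largest in the vehicle groups, at 61.1% and 53.3%, against 33.4% to 37.2% in the treated groups. The rule used means of these vehicle groups, and whether it favours transcripts with a wide spread was not tested.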

How the data were processed

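The 30 liver libraries were quantified by the authors with kallisto 0.42.4, per the submitters' processing notes (transcript set: not given in the sources used here). Per the file headers, each deposited table lists a transcript's length, its estimated count, which is not normalized, and its TPM. Of the positive estimated counts, 48.7% were whole within 1e-06. The labels' dose and duration gave the groups, with replicates taken as separate animals, since the design describes 30 animals. Within groups, all 60 pairs of libraries differed by more than counting noise (chi-square per degree of freedom 23.6 to 190).

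Members were taken from the deposited TPM values. The members and lists were chosen with earlier results of these data known. Estimated counts were rounded and tested with edgeR 4.0.16 (R 4.3.3; TMM factors 0.822 to 1.43, which were 0.822 to 0.894 in vehicle and 1.23 to 1.43 in high dose animals at 33 h) on the 18239 transcripts kept by filterByExpr, which held 99.95% to 99.98% of the counts. A single quasi-likelihood model held all 6 groups, and Benjamini-Hochberg adjustment ran over all tested transcripts. Fitted values include a small prior count. Counts are relative, so higher and lower refer to shares of the sequenced RNA. Floors cover counting error only. The test was checked on simulated counts, where 132 transcripts were called and 4 of them falsely. Alternatives were other scalings, count filters, DESeq2 1.42.0, limma 3.58.1 voom, fits of the compared groups alone and each animal left out.

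The reference table (assembly mCavPor4.1, 37416 genes) matched 0 identifiers, so lists of genes and markers were not used. Members to be named were those with the largest smaller change, the highest vehicle mean, the largest called differences between the low dose groups and those nearest the thresholds. Identifiers were printed for 4.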

Additional observations from a re-analysis of the deposited data

Results flagged for a closer look

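Within 78 groups of 5 animals looked at for the members given animal by animal and for the per-animal median, 13 held an animal far from the rest. The chance rate of about 1 in 20 assumes normally distributed values. It does not apply to groups with most animals at 0, where a single positive animal always stands apart, so no excess is read. In the member of 1849 bases the animals apart were 8.78 TPM in a low dose animal at 9 h and 18.5 TPM in a high dose animal at 33 h. At 9 h, single high dose animals stood apart at 1.23 TPM in ENSCPOT00000038245.1, 1.35 TPM in the member of 159 bases, 0 TPM in that of 423 bases, 2.01 TPM in that of 297 bases and 2.64 TPM in ENSCPOT00000048140.1. At 33 h, single low dose animals stood apart at 1.46 TPM in the member of 159 bases, 5.18 TPM in that of 423 bases, 1.81 TPM in that of 744 bases and 52377 TPM in that of 2267 bases. A vehicle animal at 33 h had 5.09 TPM of ENSCPOT00000048140.1. The median over members in 1 high dose animal at 9 h, −0.50 in log2 on the TMM scale, was apart from the other 4.

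The low dose effect differed between the times, by the interaction in edgeR at an adjusted p under 0.05, for 126 members, all more positive at 33 h. For ENSCPOT00000034367.1 the difference was 2.83 ± 0.69 in log2 (SE, adjusted p 0.00796). For ENSCPOT00000038245.1 the fitted difference was 11.24 (adjusted p 0.00477), a value that depends on the prior count because the low dose group at 9 h was at 0. These comparisons share vehicle animals with the rule.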

How the results depend on the processing

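The number of transcripts that met the rule was 468, and it was 208 with 1 TPM added, 38 with thresholds of 0.5 and 2, 763 with a vehicle minimum of 0.1 TPM, 191 with 5 TPM and 103 on TMM-scaled counts. Leaving out each animal of the 4 groups in turn gave 408 to 557. The members called between the low dose groups, 152 in both directions, were 136 to 148 without each animal in turn and 143 to 194 under the other 7 alternatives, with the excess of rises kept. With library totals, the calls were 54 for the low dose at 9 h, 250 for the low dose at 33 h and 196 for the high against the low dose at 33 h, in place of 115, 82 and 77, and the median log2 difference over all tested transcripts became 0.14, 0.36 and 0.31 between the low dose groups, for the low dose at 33 h and for high against low at 33 h. With the vehicle animals of 9 h, the low dose at 33 h had 51 calls. With only the groups compared, high against low at 33 h had 40. Leaving out each animal in turn gave 98 to 114 and 63 to 84 calls for the low dose at 9 h and 33 h, 108 to 123 for the difference between times, and 90 to 145 and 54 to 100 for high against low dose at 9 h and 33 h. With library totals the low dose thus had more calls at 33 h than at 9 h, the opposite of the order with TMM scaling, and with the 9 h vehicle animals the low dose at 33 h had 25 members higher and 26 lower in place of 80 and 2. The causes were not tested. No paired analysis applied, since each animal contributed liver at 1 time only. The labels give no replicate numbers, so animals are numbered here by the order of the samples in a group. Members of a few counts per library limit what can be seen: 6 could not be tested.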

Other observations

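Library titles carry a running number whose meaning is not given in the sources used here, and the numbers of the 6 groups are interleaved. Over the 30 animals, the level of the member of 2267 bases rose with this number (Pearson's r 0.784, Spearman's rho 0.805, two-sided permutation p 1e-05 for each, the smallest that 100000 resamples can give, adjusted p 8e-05 over 8 members). Without the 2 animals whose number was farthest from the median, r was 0.767. The other 7 of the 8 most abundant members did not pass (adjusted p from 0.289 for r and from 0.358 for rho). An absolute rho of at least 0.6 was found for 1 of 468 members and 31 of 13267 transcripts at the vehicle minimum. With the group means removed and the numbers permuted within groups, r was 0.806 for this member (permutation p 1e-05, again the smallest possible, adjusted p 8e-05 over 8), and the relation was positive in 6 of 6 groups; for the other 7 the adjusted p was 0.201 or more. The relation was looked for after the data were seen.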
